A study of Mus musculus with 9 samples.

Results

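The fibrillar collagen chains described here are Col1a1, Col1a2, Col3a1, Col5a1, Col5a2, Col5a3, Col11a1 and Col27a1. They were taken by symbol from a fixed list of 8 genes, with no cut on their values, and are 8 of the 18830 genes in the count files. The list was chosen with earlier results of these data known. All 8 passed the filter on low counts and are among the 14741 genes tested. RNA came from the suprarenal abdominal aorta of mice that lacked ApoE, a knockout used because it is prone to atherosclerosis and, under angiotensin II, to aneurysm. Angiotensin II (Ang II), a peptide that constricts vessels, was infused by osmotic pump at 1000 ng/kg/min, and 3 libraries were labelled 14 days and 3 were labelled 28 days. The other 3 libraries were sham controls with the same genotype, and the labels do not give the day on which the sham aortas were taken. The sample titles name muscle, while the tissue labels name aorta. Nothing in the labels says that the 3 libraries of a group came from separate mice, so p-values measure the spread between these libraries.

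Fibrillar collagens are the cords of the vessel wall. Each molecule is a rod of 3 chains wound into a triple helix, which is possible because every 3rd residue of the chain is glycine, the only residue small enough for the centre of the rod. Procollagen is folded and hydroxylated in the endoplasmic reticulum, its end pieces are cut off outside the cell, and the rods then pack side by side and are crosslinked by lysyl oxidases. Collagens type I and type III give the adventitia and media their resistance to stretch. Type V collagen starts and limits the growth of type I fibrils, type XI is its close relative in cartilage, and type XXVII is a chain best known from developing cartilage. Adventitial fibroblasts and smooth muscle cells are the main makers in the aorta.

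The repeat that makes these chains fibrillar can be read in their coding sequence, and the chains whose ratios differed below are shown at the start of their longest unbroken run of glycine triplets. The lines are the coding strand, 5′ to 3′, from GENCODE M21 on GRCm38, and capitals mark the glycine codons.
Col1a1: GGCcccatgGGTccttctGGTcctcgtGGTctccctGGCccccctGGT
Col1a2: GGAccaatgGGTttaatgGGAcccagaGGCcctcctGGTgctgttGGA
Col5a1: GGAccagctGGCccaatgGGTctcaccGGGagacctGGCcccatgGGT
Col5a2: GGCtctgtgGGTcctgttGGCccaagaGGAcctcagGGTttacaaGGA
Col27a1: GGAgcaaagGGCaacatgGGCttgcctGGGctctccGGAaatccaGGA
The run held 338 triplets in Col1a1, 339 in Col1a2, 344 in Col3a1, 338 in Col5a1, 339 in Col5a2, 337 in Col5a3 and 338 in Col11a1. In Col27a1 it held 217 triplets and made up 35.3% of the codons, against 55.2% to 74.1% in the other chains. Proline codons filled 34.3% of the last positions of the triplets in Col1a1 and 27.7% in Col1a2, the position where prolyl hydroxylase acts.

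The 9 libraries had between 9609690 and 14923936 expected counts. Apoe, the targeted gene, was read in all 9 libraries, with 160 to 648 CPM at 14 days, 23 to 270 CPM at 28 days and 22.5 to 87.5 CPM in sham, so the counts per gene do not show the deletion (CPM are TMM-scaled counts per library total). Markers of smooth muscle, of macrophages and leukocytes and of dividing cells moved with the groups, and those of skeletal muscle were higher at 28 days. The 6 smooth muscle markers, those of the aortic media, summed to 3510 to 16100 CPM at 14 days, 1960 to 6000 CPM at 28 days and 9250 to 27900 CPM in sham, so 28 days lay below sham without overlap. The 6 macrophage and leukocyte markers summed to 1860 to 10700 CPM at 14 days and 1720 to 2800 CPM at 28 days, against 245 to 1290 CPM in sham, with no overlap at either time and the highest sum in 14-day replicate 2. The 5 markers of dividing cells summed to 39.2 to 158 CPM at 14 days and 27.3 to 62.2 CPM at 28 days, against 8.87 to 14.2 CPM in sham, also with no overlap. edgeR called 0 of these markers at either time. At an unadjusted p under 0.05 it had 0 smooth muscle, 6 macrophage and 5 dividing-cell markers at 14 days and 6, 3 and 5 at 28 days. Of all 14741 genes, 3460 were at that threshold at 14 days and 2042 at 28 days. DESeq2 called 5 macrophage and 5 dividing-cell markers higher at 14 days, and 1 and 2 higher and all 6 smooth muscle markers lower at 28 days. It called 8.6% of all genes higher at 14 days, and 3.89% higher and 2.69% lower at 28 days. Cd68, a macrophage marker, had no DESeq2 p-value. Of single genes, 12.6% lay above sham without overlap at 14 days, and 12.2% above and 9.46% below it at 28 days. The 6 fibroblast markers overlapped between groups, at 641 to 1010 CPM at 14 days, 437 to 1020 CPM at 28 days and 505 to 1070 CPM in sham, with a median log2 difference of 0.14 at 14 days and 0.26 at 28 days. Other tissue was uneven within groups. The 6 nerve and Schwann cell markers summed to over 1000 CPM in 14-day replicate 1, 28-day replicate 2 and sham replicate 2 and to 923 CPM in 28-day replicate 3. The 6 skeletal muscle markers summed to 91.8 to 13300 CPM at 28 days and passed 1000 CPM in replicates 1 and 2. They summed to 3.96 to 16.9 CPM at 14 days and 3.86 to 43.5 CPM in sham, so 28 days lay above both without overlap. At 28 days against sham, DESeq2 called all 6 higher, and edgeR had all 6 at an unadjusted p under 0.05. In whole tissue, fewer cells of a type and less RNA per cell cannot be told apart.

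Per length of transcript, type I and type III chains were far above the rest. FPKM here are CPM per kilobase of the GENCODE transcript with the longest coding sequence. Col3a1 averaged 696 ± 411 FPKM at 14 days, 482 ± 196 at 28 days and 249 ± 83.6 in sham (SD, n = 3 each). Col1a2 averaged 536 ± 352 FPKM at 14 days, 343 ± 115 at 28 days and 209 ± 78.3 in sham. Col1a1 averaged 594 ± 506 FPKM at 14 days, 344 ± 98.8 at 28 days and 154 ± 62.3 in sham. These 3 levels overlapped one another in each group. Next came Col5a2 with 76.1 ± 39.2 FPKM at 14 days, 42.3 ± 14.2 at 28 days and 36.6 ± 13.1 in sham, then Col5a1 with 44.4 ± 21.5 FPKM at 14 days, 25.1 ± 7.11 at 28 days and 31.6 ± 13.8 in sham. Col5a2 and Col5a1 overlapped in each group, while Col5a1 and Col5a3 overlapped at 28 days and, through replicate 2, in sham. Col5a3 had 15.5 ± 7.39 FPKM at 14 days, 20.6 ± 4.05 at 28 days and 15.0 ± 15.5 in sham. Col27a1 had 4.83 ± 0.796 FPKM at 14 days, 6.78 ± 1.19 at 28 days and 8.88 ± 0.922 in sham, and Col11a1 was lowest with 2.92 ± 3.95, 1.84 ± 0.424 and 0.452 ± 0.708 FPKM. Col5a3 and Col27a1 overlapped in sham, where Col27a1 was the higher chain in replicates 1 and 3, and Col27a1 and Col11a1 overlapped at 14 days only, through replicate 2.

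**Figure D1:**
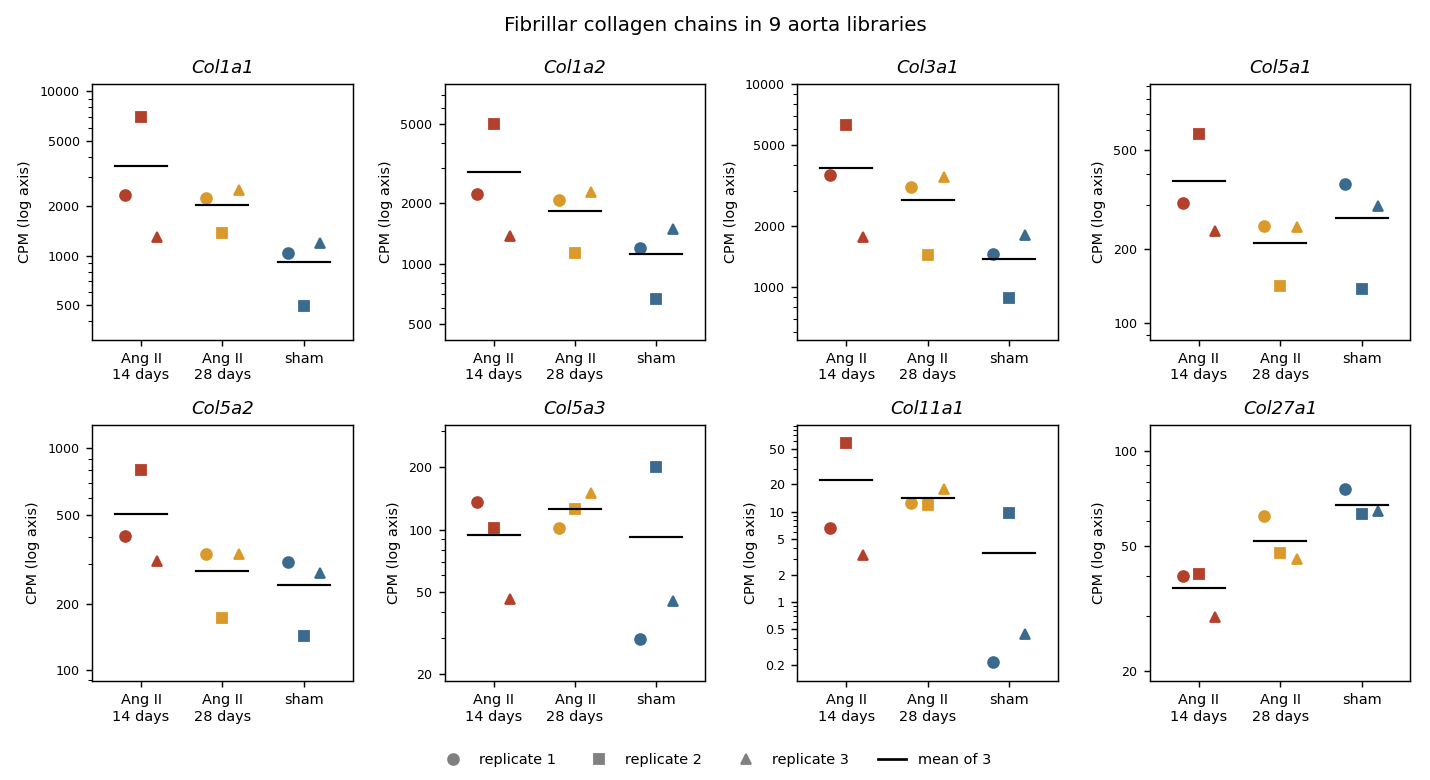
Level of each chain in CPM (log axis) in the 3 libraries of each group, with marker shapes for replicates 1 to 3 and a black line at the mean of 3. Col1a1 lies above sham in all 6 Ang II libraries and Col27a1 below it, while Col5a3 and Col11a1 in sham are set by replicate 2 at 201.1 and 9.73 CPM.

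Col1a1, which encodes the alpha 1 chain of type I collagen, was higher after Ang II in all 6 libraries (Entrez 12842, ENSMUSG00000001506, GRCm38.p6 chromosome 11, 94936224 to 94953042). Replicates 1 to 3 in order, the 14-day libraries held 2335, 6939 and 1300 CPM, the 28-day libraries held 2248, 1381 and 2498 CPM and the sham libraries held 1037, 495.2 and 1202 CPM. Values of other genes are given in the same order of replicates. The groups did not overlap at either time, and 14-day replicate 2 stood far above the rest. The difference was 1.95 ± 0.65 log2 at 14 days and 1.16 ± 0.64 log2 at 28 days against sham (SE). Neither passed edgeR's quasi-likelihood test with Benjamini-Hochberg adjustment over all genes (adjusted p = 0.142 and 0.502). Without 14-day replicate 2 the 14-day difference was 1.01 ± 0.48 log2. That library also had the highest sum of macrophage and leukocyte markers, 10700 CPM, and the lowest sum of smooth muscle markers at 14 days, 3510 CPM, and their part in the level of Col1a1 was not tested.

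Col1a2 is the partner chain of type I collagen (Entrez 12843, ENSMUSG00000029661, chromosome 6, 4505618 to 4541543). The 14-day libraries held 2239, 4983 and 1372 CPM, the 28-day libraries held 2091, 1134 and 2281 CPM and the sham libraries held 1195, 665.5 and 1492 CPM. The groups overlapped at both times. The differences of 1.36 ± 0.55 log2 at 14 days and 0.72 ± 0.54 log2 at 28 days were each smaller than those of Col1a1, and edgeR's adjusted p was 0.187 and 0.678. Without 14-day replicate 2 the 14-day difference was 0.71 log2.

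Col3a1 makes type III collagen, which forms homotrimers and is the chain mutated in vascular Ehlers-Danlos syndrome in humans (Entrez 12825, ENSMUSG00000026043, chromosome 1, 45311538 to 45349706). The 14-day libraries held 3560, 6300 and 1761 CPM, the 28-day libraries held 3114, 1436 and 3487 CPM and the sham libraries held 1467, 885.9 and 1806 CPM. Replicate 3 at 14 days and replicate 2 at 28 days lay within the sham range. The differences were 1.48 ± 0.55 log2 at 14 days and 0.95 ± 0.54 log2 at 28 days, with an edgeR adjusted p of 0.165 and 0.529. Without 14-day replicate 2 the 14-day difference was 0.96 log2.

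Col5a1 and Col5a2 encode the chains of the common type V trimer that nucleates type I fibrils. Col5a1 stood at 306.1, 577.6 and 234.9 CPM in the 14-day libraries and 246.9, 141.8 and 243.6 CPM in the 28-day libraries, against 362.4, 137.5 and 296.1 CPM in the sham libraries (Entrez 12831, ENSMUSG00000026837, chromosome 2, 27886381 to 28039510). Its groups overlapped at both times, with differences of 0.49 ± 0.46 log2 at 14 days and -0.33 ± 0.46 log2 at 28 days and an edgeR adjusted p of 0.561 and 0.869; without 14-day replicate 2 the 14-day difference was 0.047 log2. Col5a2 stood at 404.2, 798.6 and 309.5 CPM in the 14-day libraries and 335.8, 171.6 and 333.8 CPM in the 28-day libraries, against 307.9, 143.5 and 275.0 CPM in the sham libraries (Entrez 12832, ENSMUSG00000026042, chromosome 1, 45374331 to 45503282). All 3 of its 14-day libraries lay above sham, replicate 3 only just, while 28 days overlapped sham. The differences were 1.06 ± 0.46 log2 at 14 days and 0.21 ± 0.45 log2 at 28 days, with an edgeR adjusted p of 0.213 and 0.930. Without 14-day replicate 2 the 14-day difference was 0.58 log2. Col5a2 lies beside Col3a1, on the opposite strand, with 24624 bases between the genes. Col5a1 is overlapped on the other strand by the transcripts 2810430I11Rik and Gm13372, and since the strandedness of the libraries is not given in the sources used here, reads of the overlap cannot be told apart. Col5a2 is overlapped by Gm38211 and Col1a2 by Gm43921 on the same strand, where strand could not separate reads. Short RNA genes of 82 to 321 bases overlap Col3a1, Col5a3 and Col27a1.

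Col5a3 encodes a less widespread chain of type V collagen (Entrez 53867, ENSMUSG00000004098, chromosome 9, 20770050 to 20815117). The 14-day libraries held 135.6, 101.9 and 46.1 CPM, the 28-day libraries held 101.5, 126.4 and 151.0 CPM and the sham libraries held 29.62, 201.1 and 44.85 CPM. The highest value of all 9 libraries was in sham replicate 2, which also had the highest sum of nerve and Schwann cell markers, 4420 CPM. The differences were 0.04 ± 0.70 log2 at 14 days and 0.46 ± 0.70 log2 at 28 days (edgeR adjusted p = 0.976 and 0.886).

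Col11a1, the type XI counterpart of Col5a1, was scarce (Entrez 12814, ENSMUSG00000027966, chromosome 3, 114030479 to 114220756). The 14-day libraries held 6.59, 57.3 and 3.33 CPM, the 28-day libraries held 12.6, 11.9 and 17.8 CPM and the sham libraries held 0.213, 9.73 and 0.445 CPM. The 28-day libraries all lay above sham, and the 14-day libraries overlapped sham through sham replicate 2. Sham replicates 1 and 3 rest on 2 and 5 counts, of which the lower is under the 3 counts that a count of 0 allows. The sham level was thus set mainly by replicate 2. The differences were 2.67 ± 1.47 log2 at 14 days and 2.01 ± 1.44 log2 at 28 days, and neither passed edgeR's test (adjusted p = 0.313 and 0.654). Single libraries moved them. The 14-day difference was 0.54 log2 without 14-day replicate 2. Without sham replicate 2, which leaves sham libraries of 2 and 5 counts, the differences were 6.02 log2 at 14 days and 5.35 log2 at 28 days.

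**Figure D2:**
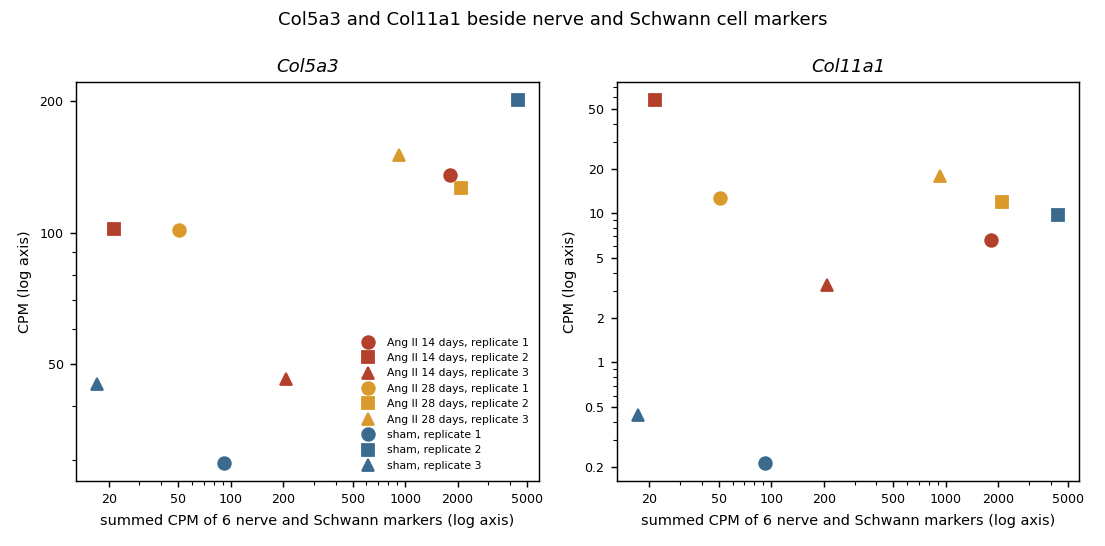
Col5a3 and Col11a1 in CPM against the summed CPM of the 6 nerve and Schwann cell markers in each of the 9 libraries (both axes log), coloured by group and shaped by replicate. The sham library with 4420 CPM of the markers has the highest Col5a3, at 201.1 CPM, while the highest Col11a1, 57.3 CPM, is in a 14-day library with 21.5 CPM of the markers.

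Markers of nerve tissue and of cartilage were set beside these chains. All 6 nerve and Schwann cell markers were tested; they summed to 21.5 to 1820 CPM at 14 days, 50.8 to 2090 CPM at 28 days and 17.2 to 4420 CPM in sham. Dbh, Th and Nefl were at 0 in sham replicate 3. The part of this tissue in the level of Col5a3 was not tested. Without the 3 nerve-rich libraries, those over 1000 CPM, a choice made after seeing the data that keeps 28-day replicate 3 with its 923 CPM, Col5a3 differed by 1.02 ± 0.49 log2 at 14 days and 1.71 ± 0.50 log2 at 28 days, and Col11a1 by 6.50 ± 1.61 and 5.42 ± 1.57 log2 from sham libraries of 2 and 5 counts. None of these passed edgeR's test (adjusted p = 0.260, 0.364, 0.126 and 0.366). Of the 9 cartilage and bone markers, the sum was 77.1 CPM in 14-day replicate 2, where Col11a1 was highest, and lay between 6.01 and 32.6 CPM in the other 8 libraries. In 14-day replicate 2 Acan stood at 41.1, Col10a1 at 25.3, Sox9 at 4.68, Matn3 at 3.46 and Ibsp at 1.66 CPM. Col9a1, Sp7, Matn1 and Bglap were at no more than 0.36 CPM in that library. Sox9 was higher in sham replicate 1, at 5.65 CPM. Matn1 was at 0 in 6 of the 9 libraries and at no more than 0.216 CPM in the rest. The part of cartilage-like cells in the level of Col11a1 was not tested.

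Col27a1, a type XXVII chain, was lower after Ang II in all 6 libraries (Entrez 373864, ENSMUSG00000045672, chromosome 4, 63214009 to 63334991). The 14-day libraries held 39.9, 40.6 and 29.8 CPM, the 28-day libraries held 61.95, 47.4 and 45.4 CPM and the sham libraries held 75.7, 62.9 and 64.3 CPM. All 14-day and 28-day libraries lay under sham, 28-day replicate 1 only just, and all 28-day libraries lay above 14 days. That narrow gap depends on the TMM scaling. Replicate 1 at 28 days had 566 of 9609690 counts and sham replicate 3 had 722 of 12313141, so on plain library totals these groups overlap. The difference against sham was -0.88 ± 0.19 log2 at 14 days and -0.39 ± 0.19 log2 at 28 days, and 28 days differed from 14 days by 0.49 ± 0.19 log2. None passed edgeR's test over all genes (adjusted p = 0.117, 0.426 and 0.770). Without the 3 nerve-rich libraries the differences against sham were -0.95 ± 0.27 log2 at 14 days and -0.41 ± 0.26 log2 at 28 days.

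**Figure D3:**
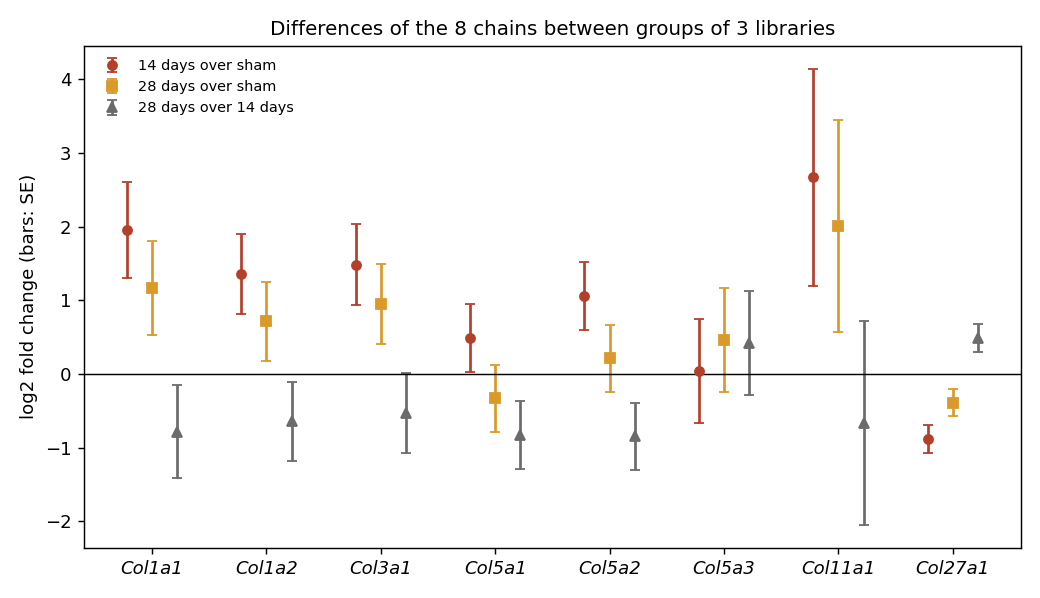
Log2 fold change of each chain with its SE, for 14 days over sham, 28 days over sham and 28 days over 14 days, from edgeR's fit of all 9 libraries. Col1a1, at 1.95 and 1.16, is high and Col27a1, at -0.88 and -0.39, is low against sham, and the bars of Col11a1 are the widest.

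Calls over all genes depended on the tool. edgeR called 0 of 8 chains in each of the 4 comparisons, where it called 0% of all 14741 genes at 14 days against sham, 0% at 28 days against sham, 0% at 28 days against 14 days and 0% with both times against sham. At an unadjusted p under 0.05 these held 5, 0, 1 and 3 chains, and 3460, 2042, 903 and 3168 genes in all. limma-voom also called 0 chains and 0 genes in every one. DESeq2 called Col1a1 and Col3a1 higher and Col27a1 lower at 14 days against sham (adjusted p = 0.0141, 0.0347 and 0.00163), where it called 13.4% of all genes. It called 0 chains at 28 days against sham (6.58% of genes) and 0 at 28 days against 14 days (0.8%), and with both times together it called Col1a1 higher and Col27a1 lower (adjusted p = 0.0286 and 0.00996; 12.2%).

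Counts without overlap can be read against the same counts over all genes. At 14 days, Col1a1 and Col5a2 lay above sham and Col27a1 below it without overlap, where 12.6% of all genes were higher and 13.5% lower in this way. At 28 days, Col1a1 and Col11a1 lay above sham and Col27a1 only just below it, beside 12.2% of genes higher and 9.46% lower. From 28 days against 14 days, Col27a1 was higher and no chain was lower, beside 4.35% and 5.71% of genes. With both times against sham, Col1a1 was higher and Col27a1, by the same narrow gap, lower, beside 8.57% and 3.97% of genes. The median log2 difference of the 8 chains was 1.21 at 14 days, 0.59 at 28 days and 0.84 with both times, while over all genes it was -0.07, -0.08 and -0.08. Without 14-day replicate 2 the median of the chains at 14 days was 0.56, and from 28 against 14 days it was 0.10 instead of -0.65.

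The makeup of the fibrillar transcripts differed between Ang II and sham aortas in 4 of 7 chain ratios. The separation of Col27a1/Col1a1 was fixed by the levels of its single chains, as set out below. Of the 4 ratios, Col1a1/Col1a2, Col5a1/Col1a1 and Col27a1/Col1a1 share Col1a1. Col5a1/Col5a2 shares Col5a1 with Col5a1/Col1a1, so the 4 are not independent. Ratios of other gene pairs were not computed, so no share over all genes can be set beside this count. A ratio of chains within a library does not change with library scaling, and the 7 ratios were set between the 6 Ang II libraries and the 3 sham libraries (FPKM plus 0.01, log2 scale, exact two-sided permutation test over 84 splits, whose smallest p is 0.0119). Col1a1/Col1a2 rose 1.39-fold, by 0.48 ± 0.10 log2 (exact p = 0.0119, adjusted over the 7 ratios 0.0208). It was 0.940, 1.26 and 0.855 at 14 days and 0.969, 1.10 and 0.988 at 28 days, against 0.783, 0.671 and 0.726 in sham, with no overlap. Markers of macrophages and of dividing cells also lay above sham in all 6 Ang II libraries. At 28 days those of smooth muscle lay below sham and those of skeletal muscle above it, in the sums given above. The part of these cells in the 4 ratios was not tested. Type I collagen trimers normally hold more alpha 1 than alpha 2 chains.

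Col5a1/Col5a2 fell to 0.707 of its sham value, a difference of -0.50 ± 0.09 log2 (exact permutation p = 0.0119, adjusted 0.0208). It was 0.597, 0.570 and 0.598 at 14 days and 0.580, 0.651 and 0.575 at 28 days, against 0.927, 0.755 and 0.849 in sham. All 6 Ang II libraries lay within 0.570 to 0.651, although the libraries' Col5a1 levels ran from 141.8 to 577.6 CPM. Col5a1/Col1a1, which sets a nucleating chain against the main fibril chain, fell by 1.34 log2 (SE 0.22, exact p = 0.0119, adjusted 0.0208). It was 0.0925, 0.0587 and 0.127 at 14 days and 0.0775, 0.0725 and 0.0688 at 28 days, against 0.247, 0.196 and 0.174 in sham.

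Col27a1/Col1a1 fell by 2.10 log2 (SE 0.52, exact permutation p = 0.0119, adjusted 0.0208), with 0.0134, 0.00457 and 0.0179 in the 14-day libraries and 0.0215, 0.0268 and 0.0142 in the 28-day libraries, against 0.0569, 0.0990 and 0.0417 in sham. Col1a1 lay above sham and Col27a1 below it in every Ang II library, so their ratio had to separate the groups. Its p-value adds nothing to the separation of the single chains. The other 3 ratios overlapped between groups. Col3a1/Col1a1 differed by -0.32 ± 0.16 log2 (exact p = 0.119, adjusted 0.139), Col11a1/Col5a1 by 3.32 ± 2.05 log2 (exact p = 0.0476, adjusted 0.0667), with 2.05 log2 without sham replicate 1 and 5.29 without sham replicate 2, and Col5a3/Col5a1 by 0.57 ± 1.32 log2 (exact p = 0.595). Between 28 and 14 days, no ratio reached 0.1, the smallest exact p that 3 against 3 libraries allow, and the lowest was 0.2. Without any 1 sham library 28 splits remain and the smallest p is 0.0357, which becomes 0.0625 when 4 of 7 ratios reach it, so exactly 4 ratios could not pass however large their differences. The 4 ratios were at that smallest p without sham replicate 1 or 3, while without sham replicate 2 Col1a1/Col1a2 and Col27a1/Col1a1 had an exact p of 0.0714. Without 28-day replicate 1, Col1a1/Col1a2 also missed the threshold (adjusted p = 0.0625). Without the 3 nerve-rich libraries the 4 log2 differences were 0.42, -0.61, -1.38 and -1.95 in the order given, and 15 splits remain, whose smallest p of 0.0667 allows no call. Without the 2 muscle-rich 28-day libraries they were 0.46, -0.52, -1.29 and -2.47, and none passed (35 splits, smallest p 0.0286, adjusted p = 0.1). The directions of these 4 ratios held without each library in turn.

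**Figure D4:**
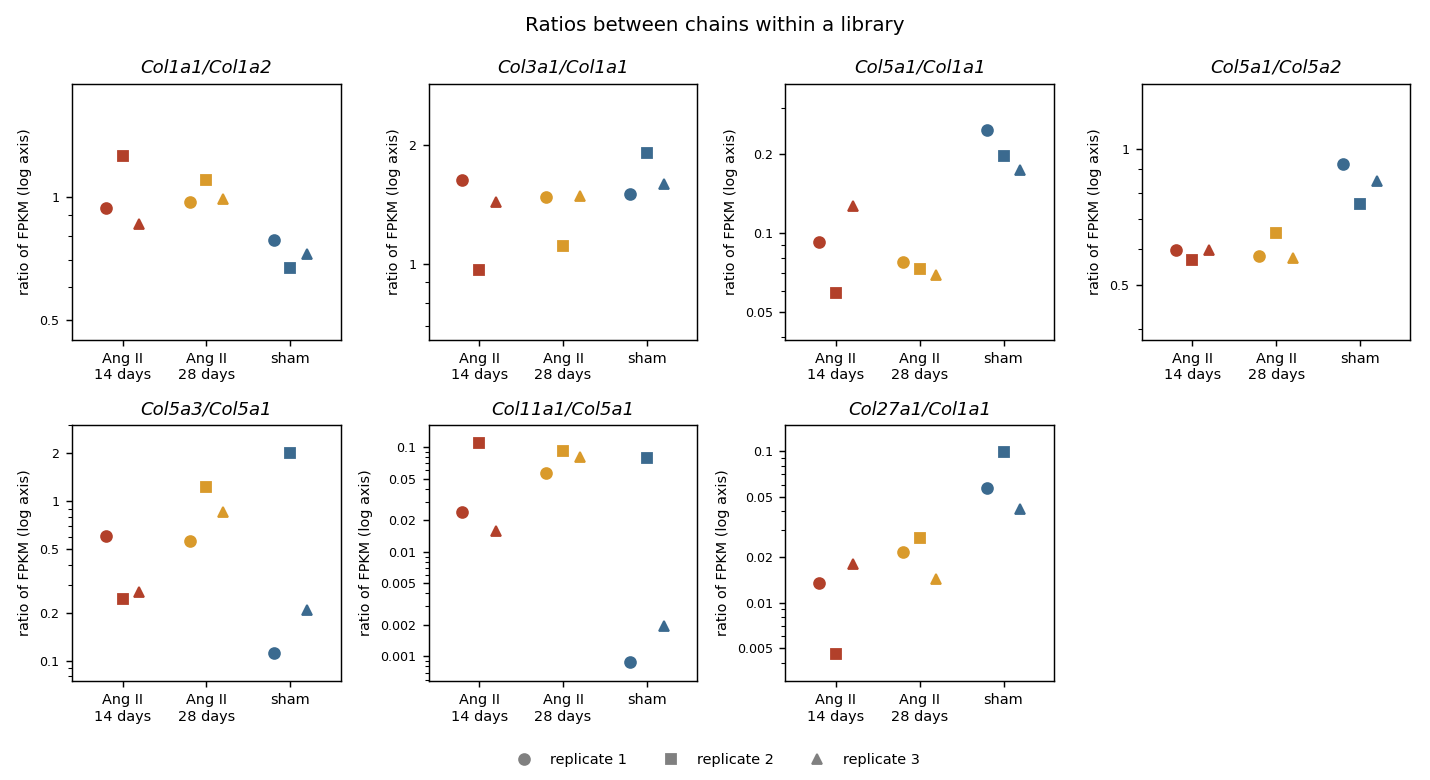
The 7 ratios of FPKM (plus 0.01) between chains in each library, on log axes, with marker shapes for replicates. Col1a1/Col1a2 lies above sham and Col5a1/Col1a1, Col5a1/Col5a2 and Col27a1/Col1a1 lie below it in all 6 Ang II libraries.

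As shares of the summed FPKM of the 8 chains, Col1a1 made up 27.9 ± 5.16% at 14 days, 27.7 ± 2.09% at 28 days and 21.3 ± 2.33% in sham (SD, n = 3 each). Col1a2 had 27.6 ± 1.43%, 27.2 ± 0.262% and 29.3 ± 1.62% in the same groups, and Col3a1 had 36.4 ± 3.90%, 37.3 ± 3.42% and 35.4 ± 0.880%. Col5a1 made up 2.49 ± 0.616% at 14 days, 2.02 ± 0.178% at 28 days and 4.40 ± 1.07% in sham, and Col27a1 made up 0.311 ± 0.147%, 0.583 ± 0.215% and 1.36 ± 0.456%. The 8 chains together held 1.10 ± 0.674% of all counts at 14 days, 0.738 ± 0.202% at 28 days and 0.387 ± 0.106% in sham.

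**Figure D5:**
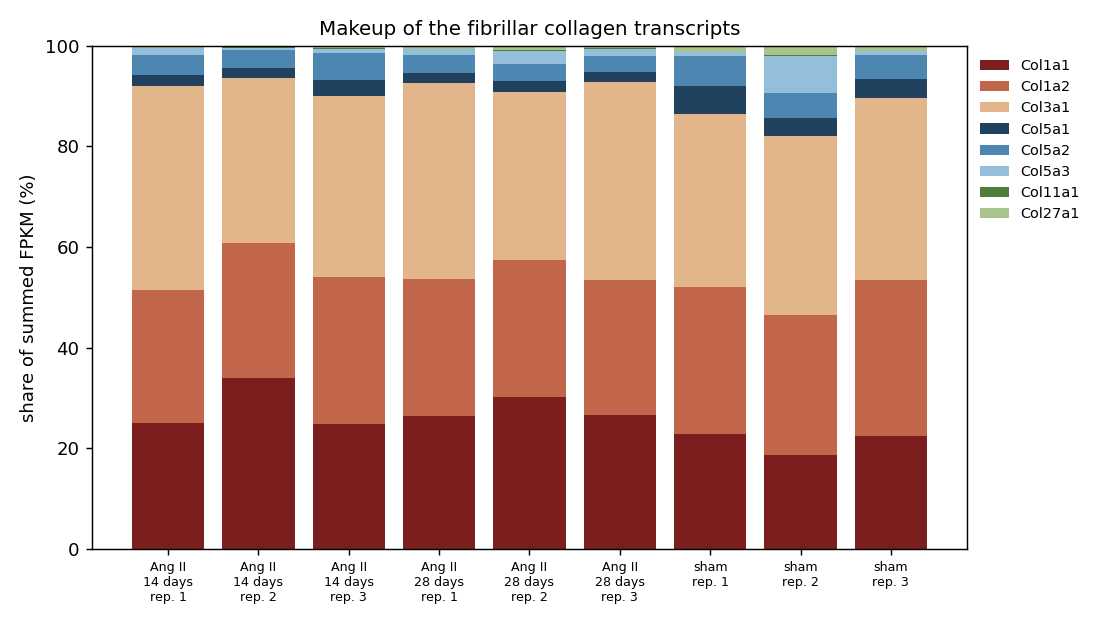
Share of each chain in the summed FPKM of the 8 chains, as stacked bars for the 9 libraries. Col1a1 makes up 24.9% to 33.9% in the Ang II libraries and 18.7% to 22.8% in sham, and in sham replicate 2 Col5a3 makes up 7.34%.

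The genes most like a chain over the 9 libraries, by Pearson's r of log2 CPM among 12236 other genes with a mean of at least 5 CPM, are given as a description, since the libraries share depth and tissue makeup. For Col1a1 they were Comp (r = 0.991), which encodes a matrix protein that binds collagen fibrils, Clec4a2 (0.990), Litaf, Dab2 and Ccl9. For Col5a3 they were Ptpn13 (0.972), Reps2, Srgap1, Shc2 and Dkk2. For Col11a1 they were Mcub (0.972), Septin11, Fscn1, AA467197 and Nid2, and for Col27a1 they were Ulk1 (0.957), Smim26, Cipc, Klhl9 and Psmd6. Among the chains themselves, Col1a1, Col1a2 and Col3a1 had r between 0.971 and 0.987 with each other, and Col5a3 had r of -0.425 with Col5a1 and 0.796 with Col11a1.

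Promoters of the 2 chains that moved most alike with Col1a1 are shown for comparison. The RefSeq table for GRCm38.p6 had a window for 6 of the 8 chains, and the 250 bases before the start of Col1a2 and Col3a1 are printed on the plus strand. Capitals mark matches, on either strand, to the letters of a CCAAT box (CCAAT), to the letters of a TATA box (TATAAA) and to the letters of a GC box (GGGCGG), which do not overlap here.
Col1a2, chr6:4505368-4505617: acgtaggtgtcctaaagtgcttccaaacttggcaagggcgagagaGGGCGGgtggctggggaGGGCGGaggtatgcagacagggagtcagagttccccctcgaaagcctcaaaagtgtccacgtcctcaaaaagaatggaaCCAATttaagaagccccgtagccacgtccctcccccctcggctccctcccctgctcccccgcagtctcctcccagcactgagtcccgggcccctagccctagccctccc
Col3a1, chr1:45311288-45311537: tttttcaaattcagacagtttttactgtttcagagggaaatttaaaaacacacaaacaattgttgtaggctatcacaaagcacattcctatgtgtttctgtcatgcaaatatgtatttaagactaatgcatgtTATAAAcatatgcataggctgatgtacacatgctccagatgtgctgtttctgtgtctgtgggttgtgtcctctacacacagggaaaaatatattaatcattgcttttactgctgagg
The Col1a2 window held CCAAT once, at 109 bases before the start, and GGGCGG at 205 and 188 bases before it, and the Col3a1 window held TATAAA once, at 117 bases before the start. The CCAAT box letters were in 33.8%, the TATA box letters in 12.4% and the GC box letters in 32.7% of all 32851 windows of this length. A match is a description of these letters only.

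Genes that fold, cut and link collagen were read from 6 lists. Beside the counts in these lists, DESeq2 called 8.6% of all genes higher and 4.77% lower at 14 days against sham, 3.89% and 2.69% at 28 days against sham, 7.87% and 4.32% with both times against sham and 0.59% and 0.21% at 28 days against 14 days. Of 24 genes of procollagen folding and export, edgeR called 0 in any comparison, and DESeq2 called P4ha3, a prolyl hydroxylase subunit that prepares chains for folding, higher at 14 days and with both times, which is 1 of 24 and below the share of all genes each time. P4ha3 stood at 9.81, 33.1 and 5.36 CPM in the 14-day libraries and 4.597, 3.296 and 8.276 CPM in the 28-day libraries, against 2.24, 1.79 and 1.69 CPM in the sham libraries, with no overlap at either time. The list's median was 0.37 log2 at 14 days, -0.17 at 28 days and 0.05 with both times. The smallest p after P4ha3 were those of Tmem38b, at -0.67 ± 0.29 log2 with both times against sham, and Sec23a, a coat protein of export vesicles, at -0.43 ± 0.21.

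Of 8 genes that cleave propeptides or enhance the cleavage, edgeR called 0, and DESeq2 called 1, Pcolce2, lower at 28 days and with both times. Pcolce2, an enhancer of procollagen C-proteinase, had 23.1, 14.7 and 16.4 CPM at 28 days, against 47.0, 25.5 and 68.4 CPM in sham. Tll1, a proteinase of the BMP1 family, differed by 1.33 ± 0.47 log2 and Adamts2, which cuts the N-propeptide, by 0.78 ± 0.40 log2 with both times. Of 5 lysyl oxidases, which crosslink the fibril, edgeR called 0, and DESeq2 called Loxl2 higher at 14 days. All 5 lay on the higher side at 14 days, with a median of 0.94 log2, beside 45.2% of all genes on that side. Their sums at 14 days were 643, 1410 and 529 CPM, highest in replicate 2. These overlapped the sham sums of 593, 264 and 598 CPM. Lox had 217.6, 505.3 and 167.0 CPM at 14 days, against 114.4, 89.5 and 185.3 CPM in sham, and Loxl4 differed by 0.59 ± 0.41 log2 with both times.

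Of 16 genes of the fibril surface and of nucleation, edgeR called 0 and DESeq2 called Col12a1, Comp, Fn1, Lum and Thbs2 higher at 14 days, 4 with both times (Col12a1, Comp, Dcn and Lum), and Fn1 lower at 28 days against 14 days, beside 8.6%, 7.87% and 0.21% of all genes. Lum, a proteoglycan that coats fibrils, stood at 437.2, 1417 and 380.8 CPM in the 14-day libraries and 593.2, 252.0 and 585.5 CPM in the 28-day libraries, against 225.4, 133.0 and 183.7 CPM in the sham libraries, with no overlap. Col12a1, a fibril-associated collagen, differed by 1.95 ± 0.62 log2 with both times, and Dcn, decorin, by 0.97 ± 0.34 log2. Of 12 receptors and enzymes of collagen breakdown, edgeR called 0 and DESeq2 called Mmp2, Mmp8 and Itga11 higher at 14 days, Ddr1 and Itgb1 lower at 28 days and Mmp2 higher with both times, beside 8.6%, 2.69% and 7.87% of all genes. In this list and that of the fibril surface, every gene called at 14 days except Fn1 was highest in 14-day replicate 2. Itga11 stood at 11.1, 89.2 and 11.5 CPM at 14 days, against 8.95, 4.51 and 9.88 CPM in sham. Thbs2 stood at 38.8, 357 and 44.7 CPM at 14 days, against 39.0, 17.5 and 38.7 CPM in sham. Fn1 stood at 3780, 3540 and 3470 CPM at 14 days. DESeq2 was not refitted without 14-day replicate 2. Mmp2, a gelatinase, stood at 323.9, 998.6 and 190.2 CPM in the 14-day libraries and 483.0, 205.0 and 478.4 CPM in the 28-day libraries, against 115.8, 120.9 and 163.7 CPM in the sham libraries. Mmp14, which activates it, differed by 1.77 ± 0.69 log2 with both times, and Ddr1, a collagen receptor kinase, by -0.66 ± 0.22 log2. Mmp14 stood at 164.6, 1002 and 129.9 CPM in the 14-day libraries, and DESeq2 gave it no p-value. Of the remaining fibrillar chains, Col2a1 was not tested. It stood at 14.8 CPM in 14-day replicate 2 and at no more than 0.747 CPM in any other library. Col11a2 differed by -0.59 ± 0.28 log2 and Col24a1, at no more than 1.73 CPM, by 2.12 ± 1.06 log2, and edgeR called neither. With both times against sham, the medians of the lists were 0.05 log2 for folding and export, 0.17 for propeptide cleavage, 0.59 for lysyl oxidases, 0.50 for fibril partners and 0.99 for receptors and breakdown, against -0.08 over all genes. At an unadjusted p under 0.05 edgeR had 1 gene higher and 1 lower, 1 and 1, 1 and 0, 5 and 2, and 3 and 1 in these lists, beside 11.4% of all genes higher and 10.1% lower.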

How the data were processed

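Expected counts per gene were deposited by the authors, 1 file per library, and their unit is taken per the file headers. The submitters' processing notes list HISAT2 2.2.1, RSEM 1.3.1 and Bowtie2 2.4.5 and the build GRCm38.p6, with no order or role. Counts were rounded, and those of the 8 chains were whole in all 9 libraries (within 1e-06). The fixed design assumed deposited FPKM, but the files hold only expected counts, so FPKM was computed here from TMM-scaled CPM and GENCODE M21 transcript lengths.

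edgeR 4.0.16 (TMM, filterByExpr, quasi-likelihood test) was fitted to all 9 libraries over 14741 genes in R 4.3.3, with Benjamini-Hochberg adjustment and a threshold of 0.05. The common dispersion was 0.263, and the fit was tested on simulated data. There, at 14 days against sham, it called 2% of 50 genes changed 2-fold and 34% of 50 changed 4-fold. It called 74% of those changed 8-fold and 92% of those changed 16-fold, and also 8 unchanged genes. A lack of edgeR calls thus cannot show that a chain was unchanged. Members and lists were chosen with earlier results of these data known. All 8 chains were named, with the 3 genes of smallest p in each list where none passed and the 5 genes most like each of 4 chains. Other genes called by DESeq2 were named after their values were seen. Alternatives were DESeq2 1.42.0, limma-voom (limma 3.58.1), RLE size factors, other filters on low counts, fits of the compared groups alone, the replicate number as a block, each library left out and, for the ratios, other pseudocounts and no length. The 9609690 to 14923936 counts per library limit scarce chains such as Col11a1.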

Additional observations from a re-analysis of the deposited data

How the results depend on the processing

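DESeq2 called 3 chains at 14 days against sham and 2 with both times, against 0 by edgeR; other settings called 0 chains in every comparison. The planned limma fit on deposited FPKM was not run, since the files hold none. Deviations from the group mean had r from -0.553 to 0.646 between same-numbered libraries of different groups. Between differently numbered ones r ran from -0.734 to 0.716, so these values cannot show whether the numbers pair libraries. edgeR with the replicate block still called 0 chains. With the replicate block, the smallest exact permutation p that 27 arrangements allow is 0.037. The ratios Col1a1/Col1a2 (0.48), Col5a1/Col1a1 (-1.34), Col5a1/Col5a2 (-0.50), Col27a1/Col1a1 (-2.10) and Col11a1/Col5a1 (3.32) were all at that limit. With all of them at it, their adjusted p was 0.0519, whatever the size of their differences. The first 4 thus missed the threshold at the limit of the test. Leaving out each library in turn gave log2 differences of 0.41 to 0.53 for Col1a1/Col1a2, -1.47 to -1.20 for Col5a1/Col1a1, -0.58 to -0.43 for Col5a1/Col5a2, -2.38 to -1.76 for Col27a1/Col1a1, 2.05 to 5.29 for Col11a1/Col5a1 and -0.27 to 1.81 for Col5a3/Col5a1, the last turning sign without sham replicate 1; Col3a1/Col1a1 ran from -0.39 to -0.225. Col11a1/Col5a1 was 2.402 with a pseudocount of 0.1 FPKM. Without 28-day replicate 1, Col1a1/Col1a2 also missed (adjusted p = 0.0625). 2 settings were chosen after seeing the data: without the 3 nerve-rich libraries these 4 ratios were 0.42, -1.38, -0.61 and -1.95, and without the 2 muscle-rich 28-day libraries 0.46, -1.29, -0.52 and -2.47, and none passed. The first leaves 15 splits, whose smallest p of 0.0667 allows no call, and the second 35 splits.

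With each library left out, 28 against 14 days ran from -1.18 to 0.173 for Col1a1, -0.977 to 0.0281 for Col1a2, -0.880 to 0.0143 for Col3a1 and -1.18 to 1.51 for Col11a1, each turning without 14-day replicate 2. Col11a1 was also 0.40 with limma-voom and 0.92 with the replicate block. Col5a3 ran from -0.38 to 1.34 at 14 days, below 0 without sham replicate 1 (-0.38) or 3 (-0.24) or 14-day replicate 1 (-0.31), and from -0.17 to 1.55 with both times, below 0 without sham replicate 1 or 3 (-0.03). Col5a2 at 28 days ran from -0.0577 (without sham replicate 2) to 0.47. Col5a1 with both times ran from -0.23 (without sham replicate 2) to 0.37, and was -0.13 without 14-day replicate 2 and -0.0507 without the 3 nerve-rich libraries. The cause was not tested.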
